A study of Homo sapiens with 12 samples.

Results

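TC-71 cells, a human Ewing sarcoma line, gave reads in many stretches of the genome that carry no gene symbol in the deposited table. Of its 78885 rows, 53098 have no symbol. The rows described here have no symbol, do not lie on the mitochondrial chromosome, have a mean normalised count of at least 10 over the 12 libraries, and overlap by no base a row that has a symbol and the same minimum. These criteria were met by 1273 rows, called outside rows below, which are 7.32% of the 17397 rows of any kind with that mean. Another 1880 unnamed rows passed the minimum but overlapped a named row. The outside rows were chosen by their mean over all 12 libraries and by position, so their level is a description and only differences between groups were tested. The 3 rows just inside the limit had means of 10.1, 10.0 and 10.0, and the 3 just outside had 9.98, 9.98 and 9.91.

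The libraries form 4 groups of 3. In 2 groups TC-71 cells received YK-4-279 or its solvent DMSO, and in the other 2 they were transfected, either to knock down DHX9 (siDHX9) or with a scrambled sequence. The drug and DMSO acted for 16 h, at a dose labelled 2 mM for YK-4-279, and transfected cells were collected at 48 h. Cells of the DMSO and YK-4-279 groups are labelled as wild type for genotype, and every group is the same line without a second cell model. The labels call the 3 libraries of a group biological replicates. YK-4-279 is a small molecule made to block the contact between the fusion protein EWS-FLI1, which drives Ewing sarcoma, and DHX9, an RNA helicase.

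RNA polymerase II does not stop at the end of a gene: it transcribes on past the site where the messenger RNA is cut and polyadenylated, and the trailing RNA is normally degraded. Reads outside annotated genes also come from long noncoding RNAs, enhancers, unannotated last exons and copies of genes placed elsewhere in the genome. Replication-dependent histone genes are a special case, because their messenger RNAs end in a stem-loop without a poly(A) tail.

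Most outside rows lie beside genes. The median row was 2046 bases long, with quartiles of 486 and 3210 bases, and 726 rows (57.0%) were longer than 1 kb and at most 5 kb. The nearest named row with a mean of at least 10 lay at a median distance of 5154 bases, from 6 to 1680140 bases. There were 284 rows under 1 kb from it, 479 at 1 to 10 kb, 344 at 10 to 100 kb and 140 farther than 100 kb, while 26 had no such row on their contig. Within 10 kb, and where the strand of the neighbour was known, 472 rows lay past its end and 246 before its start, so 65.7% lay past the end. No source used here says if counting was by strand, so a row may hold RNA of either strand. The plot of lengths and distances shows a group of short rows and the excess past the end.

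**Figure D1:**
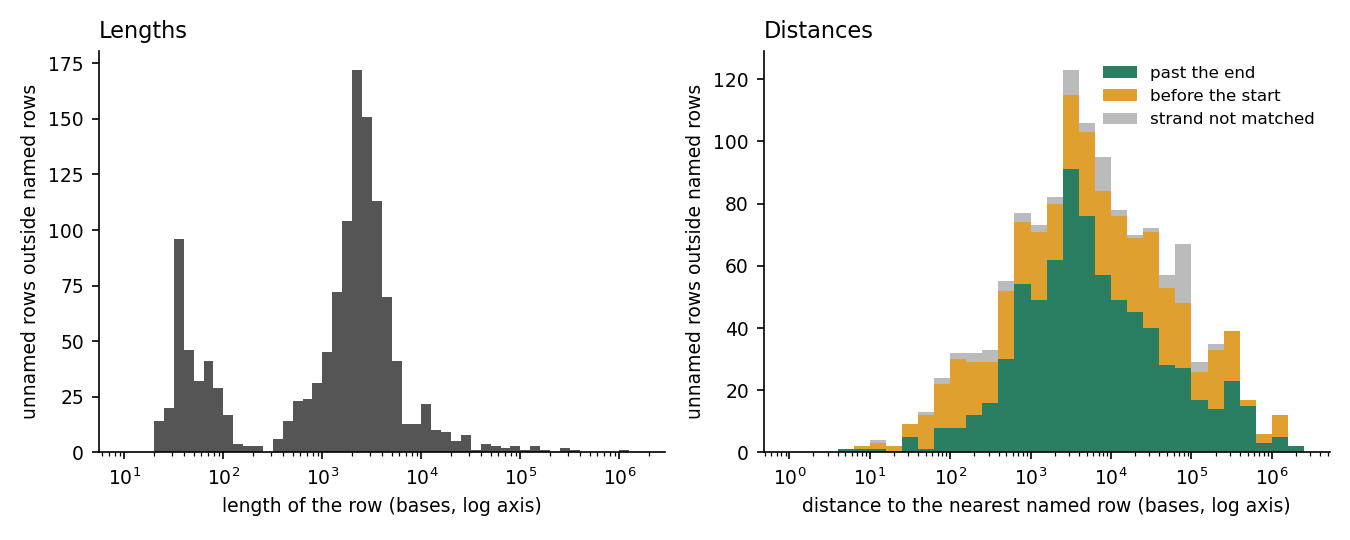
Left, lengths of the 1273 outside rows in bases on a log axis, and right, distances in bases on a log axis from 1247 of them to the nearest named row with a mean of at least 10, coloured by whether the outside row lies past the end or before the start of that row. Lengths fall into a short group and a group near the median of 2046 bases, and rows past the end outnumber rows before the start at 1 to 10 kb, 335 against 118.

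A named gene can lie under an outside row when the gene's own row held no or few reads. This was the case for 163 outside rows, of which 17 covered at least 90% of such a named row and were covered by it to at least 90%. Those named rows were SLC10A1, TYW1B, WRN, HGH1, NELFB, EFHC2, DUSP12, DDIT4, BRAP, FANCM, DUSP14, DOPEY2, CPOX, SDS, HCAR2, TRIML1 and ARR3, with means from 0 to 6.25. They were looked up after the values were seen. For 3 of them with a changed outside row, and for AP1AR, whose start has an outside row 143 bases before it, the 250 bases before the RefSeq start (GRCh38.p14, 5′ to 3′) show the starts next to which these rows are transcribed. Capitals mark matches, on either strand and with overlaps allowed, to any of the 6 motifs whose letters and shares follow the sequences.
DDIT4 (chr10:72273674-72273923, plus strand): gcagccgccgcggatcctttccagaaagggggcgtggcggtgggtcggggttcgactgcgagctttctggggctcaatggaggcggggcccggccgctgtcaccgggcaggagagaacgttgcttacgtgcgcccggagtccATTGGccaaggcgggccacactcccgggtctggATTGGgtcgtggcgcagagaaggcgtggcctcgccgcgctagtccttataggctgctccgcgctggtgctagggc
NELFB (chr9:137255077-137255326, plus strand): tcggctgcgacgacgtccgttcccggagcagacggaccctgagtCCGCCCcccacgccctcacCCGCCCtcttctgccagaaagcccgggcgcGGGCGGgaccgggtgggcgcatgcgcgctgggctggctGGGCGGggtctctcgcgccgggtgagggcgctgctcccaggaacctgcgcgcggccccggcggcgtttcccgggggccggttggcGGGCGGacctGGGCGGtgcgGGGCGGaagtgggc
FANCM (chr14:45135680-45135929, plus strand): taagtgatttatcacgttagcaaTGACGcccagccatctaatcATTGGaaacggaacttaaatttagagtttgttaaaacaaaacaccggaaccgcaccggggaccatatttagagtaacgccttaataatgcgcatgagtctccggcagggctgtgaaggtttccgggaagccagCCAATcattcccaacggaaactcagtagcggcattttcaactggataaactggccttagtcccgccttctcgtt
AP1AR (chr4:112231537-112231786, plus strand): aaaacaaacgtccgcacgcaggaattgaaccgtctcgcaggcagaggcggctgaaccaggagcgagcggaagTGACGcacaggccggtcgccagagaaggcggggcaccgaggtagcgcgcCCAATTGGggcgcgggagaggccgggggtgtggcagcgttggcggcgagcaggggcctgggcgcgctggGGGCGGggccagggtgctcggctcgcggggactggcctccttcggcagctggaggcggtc
DDIT4, FANCM and AP1AR each held 2 CCAAT matches, a motif found in 32.0% of 35116 RefSeq windows of this length, and NELFB held none. NELFB held 7 GGGCGG matches and AP1AR 1, against 42.6% of windows with at least 1. FANCM and AP1AR held 1 TGACG match each, a motif present in 21.2% of windows, and none of the 4 windows held TATAAA (10.7%), TGATG (28.8%) or TTTGGCG (1.59%). A match is a description of letters and not a binding site. The intervals of the outside rows are in hg19, a build whose sequence was not used here. Whether they overlap genes of other annotations, or resemble genes elsewhere, was not examined.

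The libraries held 38568983 to 65547726 reads. Outside rows took 0.977 to 1.15% of them, and 1251 to 1266 outside rows had at least 1 read in a given library. The joint row of NPL and DHX9, which checks the knockdown, was 1.59-fold lower in siDHX9 than in scrambled libraries (log2 −0.66 ± 0.07 SE, adjusted p = 6.05e-05). All 12 listed Ewing sarcoma markers had a mean of at least 10, and no listed endothelial marker did. Of 8 rows for fibroblast markers 5 passed that mean, their summed level ranging from 2997 to 3468 with siDHX9, from 2186 to 2515 with the scrambled sequence, from 2033 to 2132 with DMSO and from 2237 to 2367 with the drug. Among blood markers 1 of 5 passed, CD14, with CD3E at 0 in every library and sums from 46.5 to 64.5 with the drug, from 2.98 to 19.9 with DMSO, from 8.98 to 16.2 with the scrambled sequence and from 3.66 to 21.7 with siDHX9. Of the epithelial markers 3 of 5 passed, with sums from 348 to 422 with the drug, from 241 to 298 with DMSO, from 383 to 400.4 with the scrambled sequence and from 334 to 392 with siDHX9. The part of these markers in the results was not tested. Scrambled replicates 1 and 2 stood apart in the DDIT4 interval, described below, and counts are therefore also given without them.

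YK-4-279 lowered far more outside rows than it raised. Against DMSO, 161 of 1273 outside rows were called changed at an adjusted p under 0.05 (12.6%), against 13.0% of all 17397 rows tested. Their direction was uneven: 136 fell (10.7%, against 6.84% of all rows) and 25 rose (1.96%, against 6.12%). The median log2 fold change was −0.18 over the outside rows, 0.02 over named rows and 0.01 over all rows tested. With a log2 fold change of at least 1 besides, 14 rose (1.10%, against 0.920%) and 45 fell (3.53%, against 1.02%). The 1880 unnamed rows that overlap a named row leaned the same way: 140 fell (7.45%) and 33 rose (1.76%), with a median of −0.06. With that fold change besides, 54 of them fell and 16 rose. More falls than rises are thus not particular to the outside rows. In all 161 the 3 treated libraries lay on 1 side of the 3 controls, as they did for calls that make up 12.9% of all rows. In bulk RNA, fewer cells of a kind and less RNA per cell cannot be told apart. Of the outside rows, 121 had a mean under 10 in a group of this comparison, and 15 calls came from them. The count fell to 100 without DMSO replicate 1, 92 without DMSO replicate 2, 90 without DMSO replicate 3, 106 without YK-4-279 replicate 1 and 87 without YK-4-279 replicate 2, with 78.9 to 82.8% of calls lower, while it was 254 with only the 6 libraries of the comparison.

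The falls with YK-4-279 gathered past the ends of genes. Of all rows tested, 6.84% fell and 6.12% rose. At 1 to 10 kb past the end of a named row, 64 of 335 outside rows fell (19.1%) and 3 rose (0.896%), with a median log2 fold change of −0.33. At the same distance before a start, 6 of 118 fell (5.08%) and 2 rose (1.69%), with a median of −0.03. Under 1 kb past the end, 20 of 137 were lower (14.6%) and 3 higher (2.19%), with a median of −0.31. Under 1 kb before the start, 8 of 128 were lower (6.25%) and 5 higher (3.91%), with a median of −0.14. Beyond 100 kb the median was −0.01 past the end and 0.02 before the start. There 6 of 140 rows were lower (4.29%) and 2 higher (1.43%) on any side. Before a start within 10 kb, and beyond 100 kb on any side, the shares of falls thus lay under that of all rows. At 10 to 100 kb the share lay above it, with 28 of 344 lower (8.14%) and 7 higher (2.03%). The falls there were 8.47% past the end and 7.03% before the start. Beyond 100 kb, 2 of 79 fell past the end (2.53%) and 4 of 56 before the start (7.14%). Rows at 1 to 10 kb had a median level of 73.2 past the end and 34.5 before the start, so the test had more reads to work with past the end. The named neighbours of the rows at 1 to 10 kb past the end had a median change of −0.03. Of the 67 called rows there, 13 had a neighbour called in the same direction and 54 had a neighbour that was not called. The falls within 10 kb past an end include the 10 rows of the run past HELLS, described below. These rows share that neighbour, which was called lower too, and are not separate findings. The count of 64 fell to 37, 32 and 29 without DMSO replicates 1, 2 and 3, and to 33, 30 and 38 without YK-4-279 replicates 1, 2 and 3. The difference between the positions was not tested, since neighbouring rows are no replicates.

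**Figure D2:**
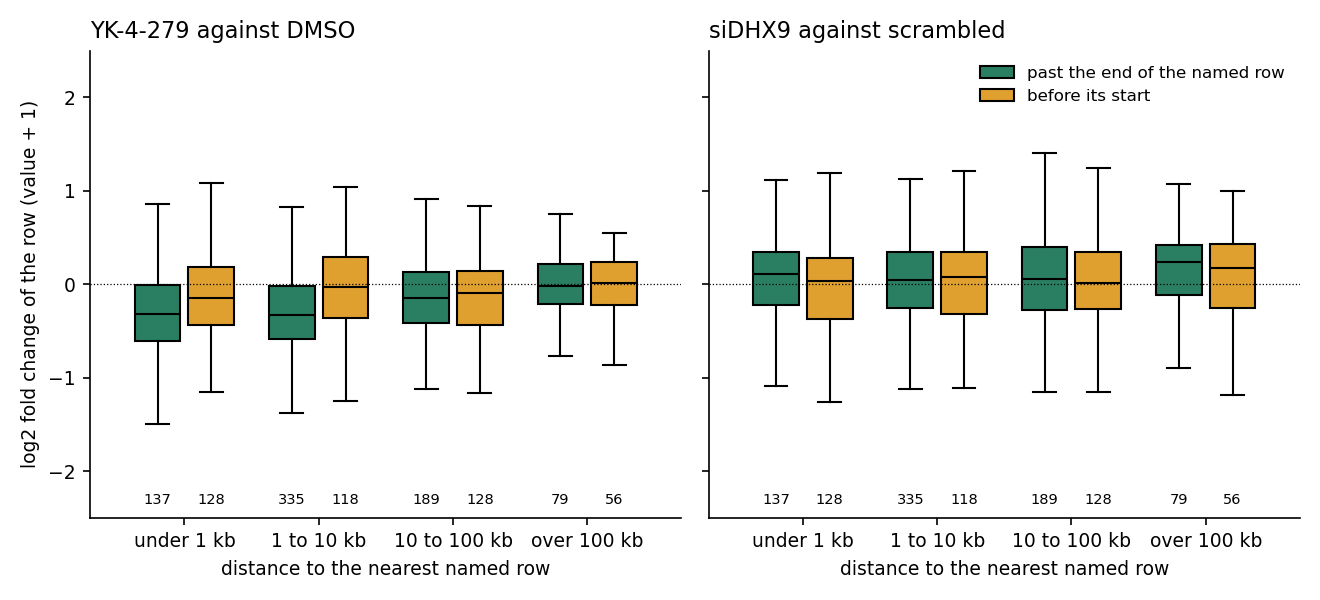
Log2 fold change (y axis, on normalised count + 1) of outside rows by distance to the nearest named row (x axis) and by position, for YK-4-279 against DMSO on the left and siDHX9 against scrambled on the right; lines in boxes are medians, boxes span the quartiles, whiskers reach 1.5 box lengths, points beyond are not drawn, and the number of rows stands under each box. With YK-4-279 the boxes past the end within 10 kb lie lowest, at medians of −0.31 and −0.33, and all medians with siDHX9 lie between 0.02 and 0.24.

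The summed reads show the same pattern at the level of libraries. The 472 rows past an end within 10 kb took 0.575, 0.564 and 0.563% of reads in the DMSO libraries and 0.458, 0.458 and 0.471% with YK-4-279. All 3 YK-4-279 libraries lay below all 3 DMSO libraries. The means were 0.567% ± 0.00696 (SD, n = 3) and 0.462% ± 0.00749. High rows weigh most in this share. The 472 rows include GSHG0033852, which alone held 11.7% of the signal of all outside rows, and GSHG0053978, both described below. Neither was called with YK-4-279, so the share is no even measure of the 472 rows. In scrambled libraries the share was 0.493, 0.447 and 0.519%, and in siDHX9 libraries 0.526, 0.549 and 0.496%, which overlap. The 246 rows before a start within 10 kb took 0.171% ± 0.00189 in DMSO, 0.164% ± 0.00304 with YK-4-279, 0.181% ± 0.00297 in scrambled and 0.167% ± 0.00567 in siDHX9 libraries (SD, n = 3). These shares depend on the total: the ribosomal RNA row alone took 4.95 to 5.44% of reads in DMSO and 7.90 to 9.98% with YK-4-279. Before a start the YK-4-279 libraries also lay below the DMSO libraries, at 0.161 to 0.167% against 0.169 to 0.173%. With the ribosomal RNA row left out of the total, the share before a start was 0.179 to 0.182% with YK-4-279 and 0.178 to 0.183% in DMSO, which overlap. The share past an end was then 0.497 to 0.514% with YK-4-279 and 0.595 to 0.605% in DMSO, which do not. On the same total, the share of all outside rows was 1.20% in DMSO and 1.09% with YK-4-279, against 1.14 and 0.994% with it.

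**Figure D3:**
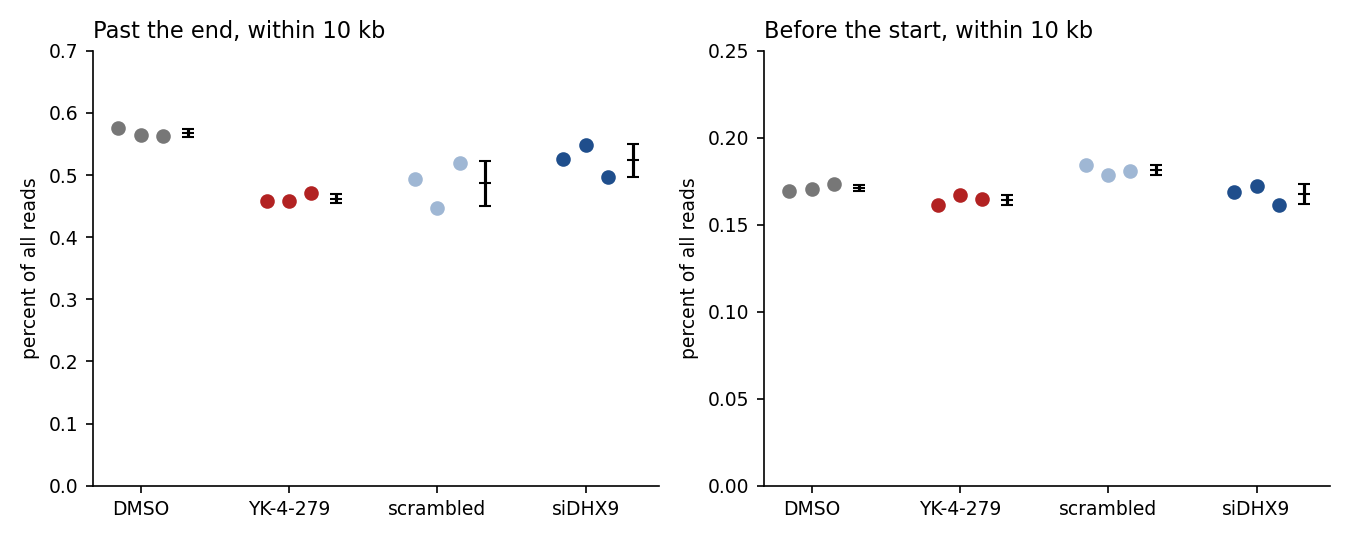
Percent of all reads of a library (y axis, from 0) in outside rows past the end (left) and before the start (right) of a named row within 10 kb, by group; points are the 3 libraries of a group in the order of their replicate numbers, and bars beside them are mean ± SD. The YK-4-279 libraries lie at 0.458 to 0.471% in the left panel, below the DMSO libraries at 0.563 to 0.575%.

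A run of 10 outside rows on chr10:96370610-96373661, beginning 419 bases past the end of HELLS, a chromatin remodelling helicase of dividing cells, shows this at 1 gene. The rows are 31 to 1619 bases long and share a transcript region, so they are not 10 separate findings. Summed over the run, DMSO libraries held 4782, 4944 and 4972 normalised counts and YK-4-279 libraries 1812, 1586 and 1739.8. Scrambled libraries held 3979.9, 3091 and 4506, and siDHX9 libraries 3579, 4202 and 2450.1. The YK-4-279 libraries were lowest of all 12, and scrambled and siDHX9 libraries overlapped. All 10 rows fell with YK-4-279, by 1.37 to 1.96 on the log2 scale. With siDHX9 limma called 0 of them, 0 had an unadjusted p under 0.05 and edgeR called 0. The longest, GSHG0131542 (chr10:96372043-96373661), held 4422, 4604 and 4664 in DMSO and 1687, 1496 and 1632 with YK-4-279, 2.84-fold lower (log2 −1.51 ± 0.16 SE, adjusted p = 0.000113). HELLS itself changed by −1.03 (adjusted p = 0.000494). GSHG0131542, GSHG0134843, GSHG0134844 and GSHG0134845 were called under every alternative fit. The other 6 each lost their call when at least 1 library among DMSO replicates 1 to 3, YK-4-279 replicates 2 and 3, scrambled replicate 1 and siDHX9 replicate 1 was left out, with the highest adjusted p, 0.15, for GSHG0134839 without YK-4-279 replicate 3.

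Other falls lay past genes that were not called. GSHG0133003 (chrX:77382494-77384793), 172 bases past the end of PGK1, a glycolytic enzyme, held 775, 843 and 946 in DMSO and 377, 477 and 446 with YK-4-279. It held 724, 586 and 755 in scrambled and 437, 411 and 380.4 in siDHX9 libraries, so each treated group lay below its own control without overlap. The falls were 1.97-fold with YK-4-279 (log2 −0.98 ± 0.13 SE, adjusted p = 0.000408) and 1.67-fold with siDHX9 (log2 −0.74 ± 0.13 SE, adjusted p = 0.0027), and both calls held under every alternative fit. PGK1 changed by 0.11 and 0.05 (adjusted p = 0.22 and 0.597).

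Further falls lay at varied distances from a named row with a mean of at least 10. GSHG0029756 (chr8:102193086-102195407), 13861 bases past the end of ZNF706, held 119, 116 and 100.2 in DMSO and 21.6, 34.2 and 30.2 with YK-4-279. Scrambled libraries held 124, 64.7 and 97.8 and siDHX9 libraries 86.9, 67.7 and 88.6, so the YK-4-279 group alone lay apart, 3.86-fold below DMSO (log2 −1.95 ± 0.25 SE, adjusted p = 0.00037). GSHG0142114 (chr6:81176675-81178797), 120687 bases past the end of BCKDHB, an enzyme subunit of branched-chain amino acid breakdown, held 75.3, 90.4 and 88.6 in DMSO and 25.9, 30.2 and 27.2 with YK-4-279 (log2 −1.57 ± 0.23 SE, adjusted p = 0.000815). GSHG0143789 (chr9:16212442-16219226), 150783 bases past the end of CCDC171, fell 2.62-fold (adjusted p = 0.00839), from 36.4 ± 5.97 to 13.3 ± 2.65 (SD, n = 3). GSHG0018936 (chr20:322167-325958), 1412 bases before the start of NRSN2, fell 2.77-fold (adjusted p = 0.00637). The named neighbours of these 4 rows were not called with YK-4-279. The largest fall by the rule for naming was GSHG0018131 (chr2:169702753-169703344), 24058 bases past the end of SPC25, a kinetochore subunit, at log2 −2.18 ± 0.55 SE (adjusted p = 0.0199). This row overlaps a named row under the minimum, and SPC25 itself fell by 0.74 on the log2 scale (adjusted p = 0.000386). The call of GSHG0018131 was lost without DMSO replicate 2 (adjusted p = 0.074) and without DMSO replicate 3 (0.058).

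The rises with YK-4-279 were few, and rows with a histone gene as nearest named row stood among them. Whether such rows overlap further histone genes that carry no symbol here was not examined. The nearest named row was a histone gene for 13 outside rows, a group put together after values were seen. Of these, 8 rose with YK-4-279 and 0 fell, against 6.12 and 6.84% of all rows tested, and their median log2 fold change was 1.01. With siDHX9 4 of the 13 rose and 0 fell, against 7.74 and 6.86% of all rows, with a median of 0.37. In either comparison edgeR called 0 of the 13 lower, and 0 were lower at an unadjusted p under 0.05. GSHG0146126 (chr1:149808026-149814400), 6712 bases past the end of HIST2H2BC, had 0 reads in all 3 DMSO libraries and 143, 147 and 114 with YK-4-279. Scrambled libraries held 52.3, 97.1 and 37.9 and siDHX9 libraries 60, 102 and 68.1, so DMSO alone was without reads. Against a floor of 3 reads over the DMSO group the level was at least 133-fold higher with YK-4-279 (adjusted p = 9.39e-08). HIST2H2BC rose by 0.78 (adjusted p = 0.0118).

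GSHG0100163 (chr6:27925019-27926048), 63350 bases past the end of HIST1H2BO, held 13.4, 11.9 and 11.6 in DMSO and 86.5, 119 and 107 with YK-4-279. It held 12.6, 10.2 and 2.00 in scrambled and 11.4, 7.32 and 8.65 in siDHX9 libraries, so only the YK-4-279 libraries were above 14. The rise was 7.84-fold (log2 2.97 ± 0.48 SE, adjusted p = 0.00177), while HIST1H2BO was not called (0.40, adjusted p = 0.483). GSHG0026388 (chr6:27075060-27100576), 241 bases before the start of HIST1H2AG, rose from 93.3, 101 and 104 in DMSO to 346, 392 and 373 with YK-4-279. The scrambled libraries held 73.9, 83.2 and 89.8 and the siDHX9 libraries 119, 83.2 and 99.4, which overlap. The change was 3.69-fold (log2 1.88 ± 0.16 SE, adjusted p = 1.32e-05). GSHG0141920 (chr6:26172303-26175512), 729 bases past the end of HIST1H2BD, rose 2.48-fold (adjusted p = 0.0037), beside a rise of 1.80 on the log2 scale in HIST1H2BD (adjusted p = 1.53e-06). GSHG0025491 (chr6:26124366-26139336), 17215 bases before the start of HIST1H1E, rose in both comparisons: from 1006 ± 34.8 to 2589.9 ± 196 with YK-4-279 (2.57-fold, adjusted p = 9.61e-05) and from 599 ± 112 to 1171 ± 219 with siDHX9 (1.95-fold, adjusted p = 0.00116; SD, n = 3). The calls of these 5 rows with YK-4-279 held under every alternative fit.

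Rises also occurred in rows whose nearest named row was not a histone gene. Whether these intervals lie on genes that carry no symbol here was not examined. GSHG0002147 (chr1:59247403-59249717), 81656 bases before the start of MYSM1, a histone deubiquitinase, held 175, 157 and 144 in DMSO and 657, 658 and 672 with YK-4-279. Both transfected groups were above DMSO as well, with 715, 535 and 304 in scrambled and 323, 332 and 364 in siDHX9 libraries, which overlap. The rise with YK-4-279 was 4.17-fold (log2 2.06 ± 0.22 SE, adjusted p = 9.87e-05), and MYSM1 was not called (0.22, adjusted p = 0.61). GSHG0133008 (chr17:41434888-41438729), 8484 bases past the end of LINC00910, rose 2.99-fold from 60.4, 32.8 and 29.5 to 110.2, 117 and 129 (adjusted p = 0.00258). GSHG0030322 (chr9:103115343-103156151), 84 bases before the start of TEX10, rose 3.04-fold from 19.4, 29.8 and 29.5 to 51.9, 103 and 97.7 (adjusted p = 0.00383). In all 3 rows the YK-4-279 libraries lay above the DMSO libraries without overlap.

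**Figure D4:**
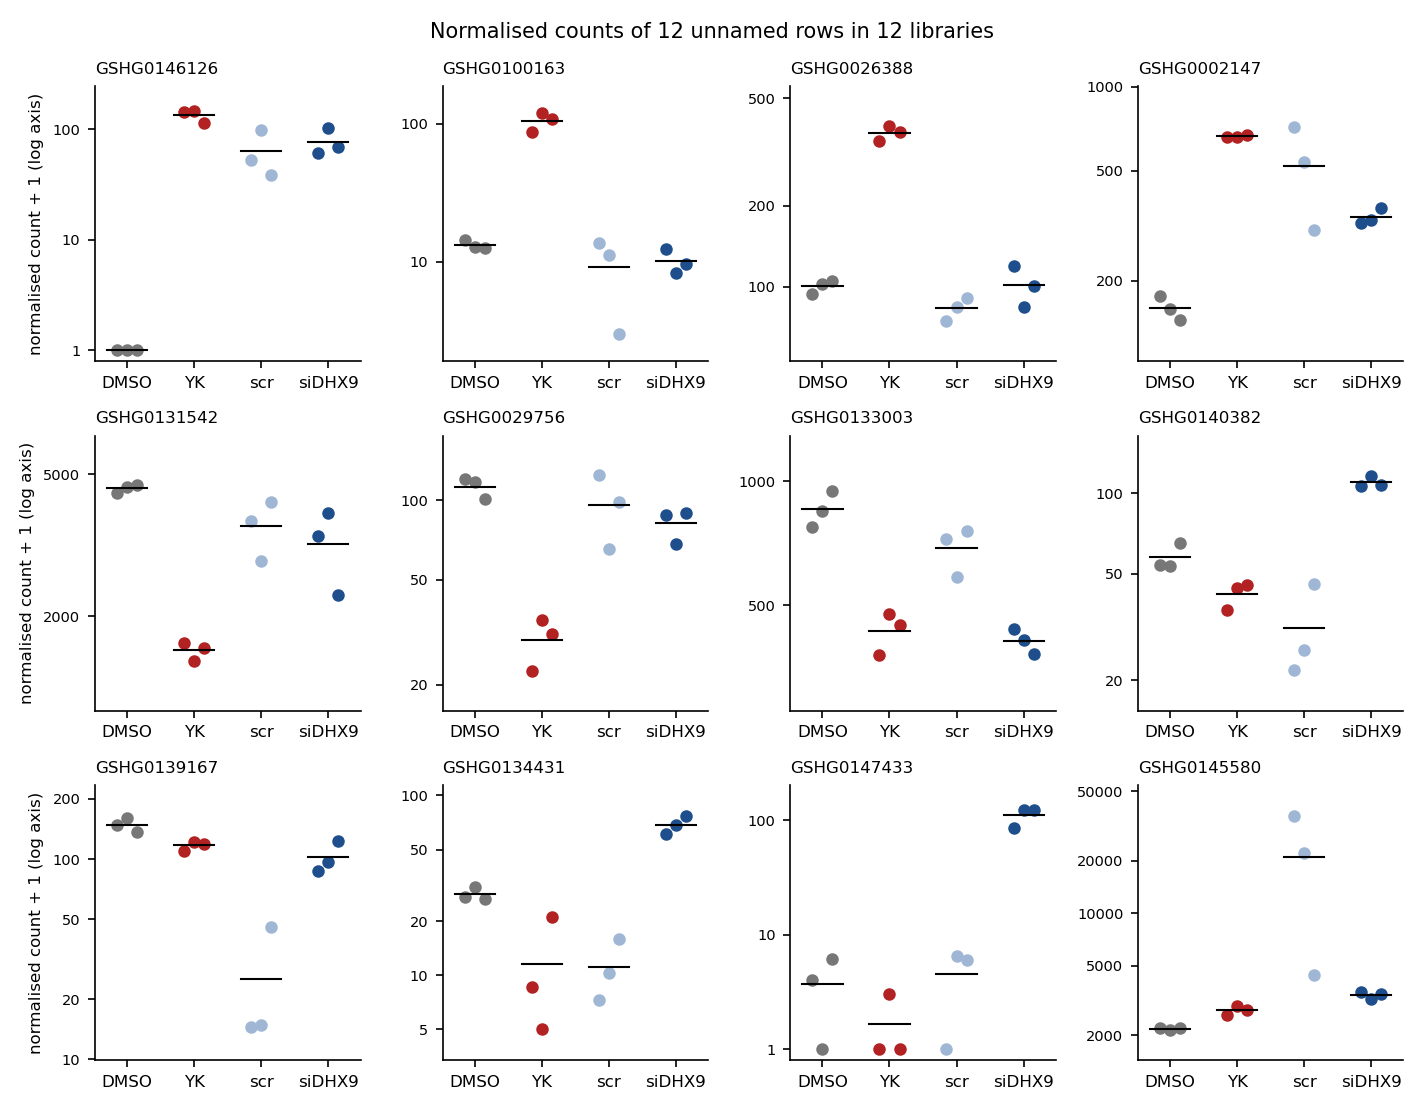
Normalised counts + 1 (y axes, log scale, differing between panels) of 12 outside rows in the DMSO, YK-4-279 (YK), scrambled (scr) and siDHX9 libraries; points are the 3 libraries of a group in the order of their replicate numbers and black lines are means. The YK-4-279 libraries stand alone at the top for GSHG0100163 and GSHG0026388 and at the bottom for GSHG0131542 and GSHG0029756, siDHX9 libraries stand highest for GSHG0147433, and the scrambled libraries of GSHG0145580 spread from 4417 to 36243.

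After knockdown of DHX9 the share of outside rows that rose was near that of all rows, and the share that fell was smaller. Against scrambled, 133 of 1273 were called (10.4%, against 14.6% of all rows tested): 94 rose (7.38%, against 7.74%) and 39 fell (3.06%, against 6.86%). The median log2 fold change was 0.06 over the outside rows and −0.01 over all rows. With a log2 fold change of at least 1 besides, 31 rose (2.44%, against 1.74%) and 16 fell (1.26%, against 1.14%). In 132 of the 133 the groups did not overlap, as for calls that make up 14.0% of all rows. A mean under 10 in a group of this comparison was found for 138 outside rows, which gave 10 calls. Of the 94 that rose, 90 had a scrambled mean below the DMSO mean and 74 had a siDHX9 mean above the DMSO mean. Over all 1273 outside rows 65.4% had a scrambled mean below the DMSO mean and 41.9% a siDHX9 mean above it. The rows called higher were picked by comparison with the scrambled group, which favours rows low in it. Of the 39 that fell, 14 had a scrambled mean below the DMSO mean and 3 a siDHX9 mean above it. The count was 68 without scrambled replicate 1, 75 without siDHX9 replicate 3, 23 without scrambled replicates 1 and 2 together (13 higher and 10 lower) and 35 with only the 6 libraries of the comparison (28 higher and 7 lower). At 1 to 10 kb past the end of a named row 36 of 335 rose (10.7%, against 7.74%) and 12 fell (3.58%, against 6.86%), with a median change of 0.04.

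Among the rises with siDHX9, 2 groups can be told by their level in DMSO. In the first, siDHX9 libraries stood above all others. GSHG0140382 (chr22:26917964-26920144), 1568 bases past the end of TPST2, a sulfotransferase, held 20.7, 24.97 and 44.9 in scrambled and 106, 115 and 106 in siDHX9 libraries, against 52.97, 52.6 and 64.2 in DMSO and 35.7, 43.2 and 44.3 with YK-4-279. All siDHX9 libraries lay above all other libraries, 3.71-fold above scrambled (log2 1.89 ± 0.26 SE, adjusted p = 0.000643). GSHG0143454 (chr8:75413979-75416899), 134646 bases past the end of GDAP1, rose from 40.6, 33.3 and 24.9 to 101, 127 and 76.7 (3.02-fold, adjusted p = 0.00264), with 45.5, 60.6 and 46.2 in DMSO. GSHG0015203 (chr19:55728028-55732984), 5018 bases past the end of TMEM86B, rose from 5.41, 0 and 5.99 to 63.1, 31.1 and 32.4 (adjusted p = 0.00406). These 3 calls held under every alternative fit.

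GSHG0027439 (chr7:73242074-73247017), 1903 bases past the end of METTL27, held 9.02, 14.8 and 16.0 in scrambled and 78.6, 104 and 80.0 in siDHX9 libraries, with 2.57 to 9.93 in DMSO (6.32-fold, adjusted p = 0.00665). GSHG0134431 (chr1:48693561-48695233), 65811 bases past the end of SPATA6, held 6.31, 9.25 and 15.0 in scrambled and 60, 67.7 and 75.7 in siDHX9 libraries (6.45-fold, adjusted p = 0.00259). In both rows the siDHX9 libraries were the highest of all 12. GSHG0004251 (chr10:94178243-94180347), 31094 bases past the end of IDE, rose 4.92-fold (adjusted p = 0.00879). With scrambled replicates 1 and 2 both left out, these 3 rows were no longer called. GSHG0027439 then had an adjusted p of 0.15, GSHG0134431 of 0.12 and GSHG0004251 of 0.069. In the second group scrambled stood below the other 3 groups: GSHG0139167 (chr2:233210978-233213250), 2300 bases past the end of DIS3L2, an RNA exonuclease, held 13.5, 13.9 and 44.9 in scrambled and 85.9, 96.0 and 122 in siDHX9 libraries, against 147, 159 and 135 in DMSO and 109, 121 and 118 with YK-4-279. It was 4.71-fold higher in siDHX9 than in scrambled libraries (log2 2.24 ± 0.35 SE, adjusted p = 0.00127), a call that held under every alternative fit, and its siDHX9 mean of 101 lay under the DMSO mean of 147.

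Among the falls with siDHX9, GSHG0000912 (chr1:147751386-147763966) held 433, 349.6 and 176 in scrambled and 91.0, 98.8 and 104 in siDHX9 libraries, against 88.0, 87.4 and 116 in DMSO, so the siDHX9 libraries lay within the range of DMSO (3.03-fold, adjusted p = 0.00236, and 0.13 without scrambled replicates 1 and 2 together). GSHG0136655 (chr15:43032771-43036513), 33 bases past the end of TTBK2, a kinase of cilium formation, held 349.8, 423 and 286 in scrambled and 148, 193 and 152 in siDHX9 libraries (2.13-fold, adjusted p = 0.00188). TTBK2 fell as well, by 0.82 on the log2 scale (adjusted p = 0.0303), and without scrambled replicates 1 and 2 together the outside row had an adjusted p of 0.11. GSHG0150547 (chr3:196076330-196078572), 1789 bases past the end of UBXN7, fell 2.05-fold (adjusted p = 0.00901, and 0.20 without scrambled replicates 1 and 2 together). GSHG0023475 (chr4:113150721-113152752), the row before the start of AP1AR, an adaptor-binding protein, held 70.3, 42.5 and 29.9 in scrambled and 20.7, 20.1 and 8.65 in siDHX9 libraries. It fell 2.79-fold (adjusted p = 0.0269) beside a fall of 0.89 on the log2 scale in AP1AR (adjusted p = 0.0105). Its call was lost without scrambled replicate 1 (adjusted p = 0.11), scrambled replicate 2 (0.062) or siDHX9 replicate 3 (0.10).

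Outside rows that coincide with a named gene included 7 that were called in at least 1 comparison. Of these, 3 were called with siDHX9 alone: GSHG0145663, which covers BRAP (log2 −0.40, adjusted p = 0.0315), GSHG0145943, which covers DOPEY2 (−0.40, 0.0342), and GSHG0147421, which covers SDS (1.37, 0.0331). GSHG0145663 lost its call without scrambled replicate 1 or 2 or siDHX9 replicate 1 or 3, GSHG0145943 without those or YK-4-279 replicate 3, and GSHG0147421 without scrambled replicate 1 or 3 or siDHX9 replicate 2 or 3, at adjusted p of 0.051 to 0.12. The other 4 are described in turn. GSHG0145580 (chr10:74033677-74035797) covers DDIT4, a stress-induced inhibitor of mTOR signalling whose own row was at 0 in every library. It held 2193, 2156 and 2193 in DMSO, 2605, 2959 and 2808 with YK-4-279, 36243, 22265 and 4417 in scrambled and 3516, 3208 and 3451 in siDHX9 libraries. Scrambled replicates 1 and 2 lay far above every other library, and the scrambled group had an SD of 15952 on a mean of 20975. The fall of 4.51-fold with siDHX9 (log2 −2.17 ± 0.50 SE, adjusted p = 0.0131) was not called without scrambled replicate 1 (adjusted p = 0.050) or scrambled replicate 2 (0.053), and became −0.38 (0.076) without both. GSHG0147433 (chr12:123185839-123187909) covers HCAR2, a receptor for niacin and ketone bodies. It held 0, 5.55 and 4.99 in scrambled and 84.8, 122 and 121 in siDHX9 libraries, against 2.98, 0 and 5.14 in DMSO and 0, 2.01 and 0 with YK-4-279. Only the siDHX9 libraries stood above 6. The log2 fold change was 5.00 ± 0.86 SE (adjusted p = 0.00258), and 4.18 (0.067) without scrambled replicates 1 and 2 together.

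GSHG0145676 (chr14:45605141-45670092) covers FANCM, a DNA translocase of the Fanconi anaemia pathway. It held 1368, 1368 and 1206 in DMSO and 858, 807 and 946 with YK-4-279, 1.51-fold lower (log2 −0.59 ± 0.11 SE, adjusted p = 0.0048) without overlap, a call that held under every alternative fit. With siDHX9 it went from 1215, 1149 and 1446 to 1012, 1013 and 835 (log2 −0.41 ± 0.11 SE, adjusted p = 0.0296). That second call was lost without scrambled replicate 1 (adjusted p = 0.061), scrambled replicate 3 (0.080) or siDHX9 replicate 3 (0.11). GSHG0145197 (chr9:140149759-140167999) covers NELFB, a subunit of the complex that pauses RNA polymerase II. It rose from 2393, 2618 and 2599 in DMSO to 3758, 3764 and 3593 with YK-4-279, 1.46-fold (log2 0.55 ± 0.12 SE, adjusted p = 0.0117, and 0.053 without DMSO replicate 1, which ends the call). The scrambled and siDHX9 libraries overlapped, at 2789.5 ± 63.0 and 3015 ± 651 (SD, n = 3).

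Of the 94 outside rows with a mean of at least 1000, 6 rose and 18 fell with YK-4-279 (6.38 and 19.1%, against 6.12 and 6.84% of all rows tested). With siDHX9 28 of them rose and 7 fell (29.8 and 7.45%, against 7.74 and 6.86%). The shares of all rows are not matched for level, and calls with siDHX9 were more frequent at higher levels. At a mean of 10 to 20, 0.943% of outside rows rose with siDHX9 and 1.26% fell. At 20 to 100 the shares were 4.45 and 2.23%, and at 100 to 1000 they were 12.1 and 4.97%. The 10 highest rows held 36.3% of the signal of all outside rows, and the highest alone 11.7%. The highest row, GSHG0033852 (chr15:83205507-83209191), 2761 bases past the end of CPEB1, a regulator of polyadenylation, held 65834, 61397 and 63277 in DMSO, 63404, 65545 and 65239.5 with YK-4-279, 51258, 52349 and 57335 in scrambled and 58798, 64135 and 73512 in siDHX9 libraries. The DMSO and YK-4-279 libraries overlapped (log2 0.03 ± 0.08 SE, adjusted p = 0.853), and the rise with siDHX9 (log2 0.28 ± 0.08 SE, adjusted p = 0.0303) was lost without scrambled replicate 1 (0.10), scrambled replicate 2 (0.083) or siDHX9 replicate 3 (0.081). GSHG0053978 (chr19:12754092-12754733), 2589 bases past the end of MAN2B1, held 39743 ± 1965 in DMSO and 39635 ± 2927 with YK-4-279 (SD, n = 3; adjusted p = 0.984). With siDHX9 it rose 1.43-fold, from 31875, 24960 and 33767 in scrambled to 42672, 36145 and 50683 (log2 0.51 ± 0.12 SE, adjusted p = 0.0161). That call was lost without scrambled replicate 2 (0.061) or siDHX9 replicate 3 (0.060), and without scrambled replicates 1 and 2 together (0.28). GSHG0089885 (chr3:22423204-22424415) held 24625 ± 1364 in DMSO and 23072 ± 902 with YK-4-279 (adjusted p = 0.415), and was not called with siDHX9 (log2 −0.20, adjusted p = 0.0658). GSHG0020005 (chr22:38201236-38203442), 470 bases before the start of GCAT, held 6939.9, 6621 and 6868 in DMSO and 10134, 10276 and 9897 with YK-4-279, 1.48-fold higher (adjusted p = 0.00298) and called under every alternative fit. Its scrambled libraries held 13476, 11268 and 9602 and its siDHX9 libraries 10079.7, 8753 and 8983 (adjusted p = 0.0652).

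Of the 1273 outside rows, 23 (1.81%) were called in both comparisons, against 2.49% of all rows tested; this is 14.3% of the calls with YK-4-279 and 17.3% of those with siDHX9. Of the 23, 12 went in the same direction (0.943%, against 1.75% of all rows): 3 rose and 9 fell in both. Another 11 fell with YK-4-279 and rose with siDHX9. The reverse was found for 0 rows, also by edgeR, and for 6 at an unadjusted p under 0.05 in each comparison. GSHG0019181 (chr20:39315607-39317498), 339960 bases before the start of TOP1, rose in both, from 1318 ± 17.4 to 1929 ± 81.1 with YK-4-279 (adjusted p = 0.0011) and from 1055 ± 84.6 to 1403 ± 66.9 with siDHX9 (adjusted p = 0.00648; SD, n = 3). GSHG0141726 (chr5:37286538-37287560), 4168 bases past the end of NUP155, a nuclear pore protein, went in opposite directions. It held 320.1, 328 and 290.2 in DMSO, 168, 185 and 221 with YK-4-279, 160.5, 123 and 246 in scrambled and 413, 336 and 363 in siDHX9 libraries. The YK-4-279 and scrambled libraries lay together below the other groups. Its log2 changes were −0.72 (adjusted p = 0.0362) and 1.12 (adjusted p = 0.00379). Leaving out DMSO replicate 1, 2 or 3 or YK-4-279 replicate 1 or 2 ended the first call (adjusted p of 0.069 to 0.12), and leaving out scrambled replicates 1 and 2 together ended the second (0.14).

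**Figure D5:**
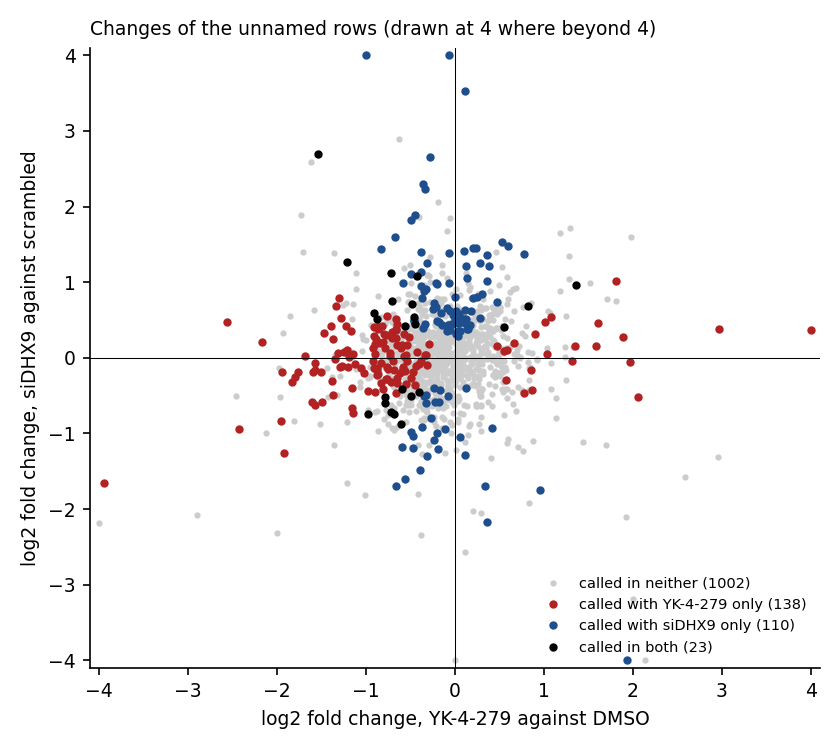
Log2 fold change of each of the 1273 outside rows with YK-4-279 against DMSO (x axis) and with siDHX9 against scrambled (y axis), on normalised count + 1; 7 rows beyond 4 are drawn at 4 and colours give the comparison in which a row was called. Rows called with YK-4-279 alone (138) lie mostly left of 0, and rows called with siDHX9 alone (110) mostly above 0.

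The size of the YK-4-279 effect differed from that of siDHX9, by a test of the difference itself, in 120 outside rows (9.43%, against 9.28% of all rows tested). The YK-4-279 effect was the lower in 105 (8.25%, against 5.41%) and the higher in 15 (1.18%, against 3.87%). Leaving out DMSO replicate 2 gave 74, and leaving out both scrambled replicates 1 and 2 gave 39.

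The changes of outside rows were also set beside those of their named neighbours. Across rows, Pearson's r between the log2 fold changes of row and neighbour with YK-4-279 was 0.42 (Spearman's rho 0.33) for 284 rows under 1 kb, 0.25 for 479 rows at 1 to 10 kb, 0.05 for 344 rows at 10 to 100 kb and 0.05 for 140 rows beyond 100 kb. With siDHX9 it was 0.25, 0.15, 0.08 and 0.11 at the same distances. Rows past an end under 1 kb had r of 0.55 with YK-4-279 and 0.45 with siDHX9, and rows before a start under 1 kb 0.22 and 0.07. At 1 to 10 kb r was 0.35 and 0.26 past an end, and −0.09 and −0.08 before a start. Beyond 100 kb it was 0.11 and 0.23 past an end, and −0.05 and 0.12 before a start. The differences between distances and positions were not tested. These are descriptions across rows that share their libraries and, in places, a neighbour.

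Some outside rows switched between 0 and high values among replicates of 1 group, so that a group mean says little. There were 20 rows at 0 in 1 replicate and at 50 or more in another of the same group, 7 of them on alternative haplotype or unplaced contigs, where 31 outside rows lie. Of the 20, 0 were called with YK-4-279 by limma or edgeR and 0 had an unadjusted p under 0.05, while 2 were called with siDHX9. GSHG0148535 (chr17:19349241-19350166) held 108, 0 and 0 in DMSO, 64.8, 91.5 and 0 with YK-4-279, 83.8, 53.6 and 88.8 in scrambled and 0 in all 3 siDHX9 libraries. The siDHX9 level was at least 74.7-fold lower than scrambled against a floor of 3 reads over the group (adjusted p = 0.0292), yet 3 libraries of the other groups were also at 0, and leaving out any scrambled replicate or siDHX9 replicates 1 or 3 ended the call (adjusted p of 0.061 to 0.084). Without the 20 rows and those on such contigs, 157 outside rows were called with YK-4-279 and 128 with siDHX9.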

How the data were processed

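RNA of 12 TC-71 libraries was sequenced by the authors. The deposited values are normalised counts, a signal on the scale of counts divided by 1 factor per library, made with DESeq by the authors. The submitters' processing notes list hg19 as the build and DESeq, STAR 2.4.0, SAMtools, Picard and FastQC as tools, without settings. Intervals and symbols are those of the table. Low values in a library are whole multiples of 1 step, and values over this step were whole within 0.1 for 99.996 to 100% of values per library. The reads so recovered served for depth, shares and count tests. Their number covers counting error only, as PCR copies cannot be told from separate molecules.

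Each value plus 1 was put on the log2 scale, and the 17397 rows with a mean of at least 10 entered a model with 4 group means in limma 3.58.1 under R 4.3.3, which kept 8 residual degrees of freedom and let the variance follow the level. The p-values are two-sided with Benjamini-Hochberg adjustment over all 17397 rows, they measure the spread between these libraries, and a fold change on this scale understates that of low rows. The fit was also run on simulated data. These had the same spread beyond counting error in all rows and groups, so they cannot show how the fit handles groups of unequal spread. The orientation of a neighbour came from GENCODE release 29 by symbol and chromosome, and its coordinates were not used. Runs join outside rows with gaps of at most 50 kb. Distances, motifs and counts were made in Python 3.11.15 with pandas 2.3.3.

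The rows and lists described here were chosen with earlier results of these data known. By the rule for naming, rows were, for each comparison, the 10 largest rises and 10 largest falls among called rows without overlap whose higher group averaged 30 or more, up to 5 each way called in both and up to 3 in opposite directions, up to 5 each way for the difference, the 10 highest, the 3 longest, the 3 farthest, the 3 largest runs and 3 on each side of the minimum; not all are printed. Rows coinciding with named genes and rows with a histone gene as nearest named row were added after values were seen. A permutation test planned for the share of reads is not printed, since 3 against 3 libraries cannot go below 0.1 and the rows were chosen with results known. The 12 libraries are numbered 1 to 3 in each group, and same-numbered libraries did not deviate together (correlations from −0.027 to 0.0775), so the numbers were not used as pairs. Alternatives were added values of 0.5 and 10, no minimum and a minimum of 50, TMM factors, quantile normalisation, edgeR 4.0.16, DESeq2 1.42.0, only the 6 libraries of a comparison, the replicate block, each library left out, a log2 fold change of at least 1 and stricter choices of rows. Chosen after seeing the data were leaving out scrambled replicates 1 and 2 together, 1 row per run, no haplotype or switching rows, and leaving the ribosomal RNA row out of the total.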

Additional observations from a re-analysis of the deposited data

Results flagged for a closer look

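In 10 named outside rows the effect of YK-4-279 and that of siDHX9 differed by a test of the difference itself (limma, adjusted p under 0.05). The YK-4-279 effect was the lower in 5, with differences on the log2 scale of −6.01 for GSHG0147433 (adjusted p = 0.00859), −4.23 for GSHG0134431 (0.00189), −3.41 for GSHG0015203 (0.0348), −2.94 for GSHG0027439 (0.0286) and −2.65 for GSHG0004251 (0.0293). It was the higher in 5, at 2.53 for GSHG0145580 (0.0398), 2.58 for GSHG0002147 (0.000373), 2.60 for GSHG0100163 (0.031), 2.70 for GSHG0137702 (0.0131) and 6.71 for GSHG0146126 (1.77e-05).

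The difference held under every alternative fit for GSHG0134431, GSHG0002147 and GSHG0146126. For GSHG0147433 and GSHG0137702 it was lost without scrambled replicates 1 and 2 together (adjusted p = 0.060 and 0.051). For the other 5 single libraries decided it. GSHG0004251 lost the call without DMSO replicate 1 or 2, any YK-4-279 replicate, scrambled replicate 2 or siDHX9 replicate 1 or 2, at adjusted p up to 0.072. GSHG0015203 lost it without any DMSO or YK-4-279 replicate or siDHX9 replicate 1, at up to 0.082. GSHG0027439 lost it without DMSO replicate 2, YK-4-279 replicate 1 or 3, scrambled replicate 1 or siDHX9 replicate 1 or 2, at up to 0.070. GSHG0100163 lost it without any DMSO or YK-4-279 replicate or scrambled replicate 1 or 2, at up to 0.075. GSHG0145580 lost it without any DMSO or YK-4-279 replicate, scrambled replicate 1 or 2 or siDHX9 replicate 1 or 3, at up to 0.091. GSHG0137702 (chr17:81061205-81063775), 8335 bases past the end of METRNL, held 10.4, 15.9 and 23.1 in DMSO, 40.0, 26.1 and 29.2 with YK-4-279, 11.7, 11.1 and 18.0 in scrambled and 2.07, 3.66 and 4.32 in siDHX9 libraries. The siDHX9 libraries were the lowest of all 12 and the YK-4-279 libraries the highest.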

How the results depend on the processing

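With YK-4-279, 161 outside rows were called; leaving out 1 library gave 87 to 192, only the 6 libraries of the comparison 254, a log2 fold change of at least 1 59, and rows at least 10 kb from a named row 43. With siDHX9, 133 were called; leaving out 1 library gave 68 to 171, only the 6 libraries 35, scrambled replicates 1 and 2 left out together 23, a log2 fold change of at least 1 47 and rows at least 10 kb away 55. For the difference, 120 were called; the same settings gave 74 to 155, 39 without both scrambled replicates, 79 and 37. On recovered reads, edgeR called 162 and 139 outside rows in the YK-4-279 and siDHX9 comparisons and DESeq2 199 and 173. With the replicate block, 142 and 129 outside rows were called in these comparisons and 110 for the difference. Of 88 calls of outside rows chosen for naming the block ended 6, GSHG0134839 among those described. Not every library correlated best with its own number. The share of reads in outside rows changed by −0.147 percentage points with YK-4-279, and by −0.113 with the ribosomal RNA row left out of the total. With siDHX9 it changed by 0.0123, less than the spread between libraries, and its sign turned: −0.00674 without the highest row, −0.00379 without the ribosomal RNA row, and −0.016 to 0.0417 on leaving out 1 library. The median distance was 5154 bases to a named row of the minimum level and 2934 to any named row. Of the same 88 calls of outside rows 29 held under all alternative fits, and 0 turned direction. The cause of these changes was not tested; fits without a library have fewer samples.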

Other observations

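Among the 53098 unnamed rows of the table, 13319 were exactly 32 bases long, while 0 named rows had that length. Of the outside rows 78 had it, and 176 were at most 50 bases long. Of those 176, 13 fell and 0 rose with YK-4-279 by limma and by edgeR, with 2 higher at an unadjusted p under 0.05, and 5 rose and 2 fell with siDHX9. The falls with YK-4-279 are 7.39% of the 176, near the 6.84% of all rows tested, of which 6.12% rose. A neighbour called in the same direction was found for 9 of the 13. The run past HELLS, whose 10 rows all fell, holds rows from 31 bases, so the 13 include part of that run. The calls with siDHX9 are 2.84% higher and 1.14% lower, against 7.74 and 6.86% of all rows.

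The largest run joined 13 outside rows of 32 to 112 bases on chr1:564684-569845. Their summed level ranged from 799 to 962 with DMSO, from 977 to 1010 with the drug, from 989 to 1274 with the scrambled sequence and from 1148 to 1308 with siDHX9. By limma and by edgeR 1 of the 13 fell with YK-4-279, GSHG0045229, and 0 rose, 1 being higher at an unadjusted p under 0.05. With siDHX9 both tools called 0, and 1 was higher at an unadjusted p under 0.05. The call of GSHG0045229 was lost without DMSO replicate 1 or 2 or YK-4-279 replicate 2 or 3, at adjusted p of 0.056 to 0.073. A run of 10 rows of 23 to 170 bases on chr19:14732534-14733972, around SNORA104, a small nucleolar RNA, had 0 calls in either comparison by limma or edgeR, and 1 lower with YK-4-279 at an unadjusted p under 0.05.

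The farthest row, GSHG0139546 (chr13:90012008-90015616), lay 1680140 bases past the end of SLITRK5 and held 16.3 ± 5.68 in DMSO and 12.5 ± 6.09 with YK-4-279 (SD, n = 3). GSHG0114795 (chrX:33059511-33060011), 1585172 bases past the end of TMEM47, held 56.3 ± 14.9 and 56.1 ± 11.6 in the same groups, and 49.97 ± 6.75 in scrambled and 52.4 ± 5.26 in siDHX9 libraries. The longest row, GSHG0119018 (chr14:106053230-107219185), spanned 1165956 bases and held 28.8 ± 3.67 in DMSO, 31.1 ± 6.81 with YK-4-279, 23.1 ± 7.71 in scrambled and 24.5 ± 2.22 in siDHX9 libraries.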
